A study of Homo sapiens with 6 samples.

Results

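Tubulin isotypes are the products of separate genes for the alpha and beta chains of the microtubule subunit. The 10 isotypes described here, 4 alpha and 6 beta, were taken by gene name from a table of 58735 gene rows, and each name matched exactly 1 row. TUBA4A was chosen by its FPKM in these libraries, which was higher with TGF-β1, so its values are given as a description with no test. The other 9 were listed beside it with earlier results of these data known. RNA came from T24, an established line of human bladder urothelial carcinoma labelled WT, grown with serum. The cells behind 3 libraries were given TGF-β1, a secreted cytokine that signals through receptor kinases and SMAD proteins, at 10 ng/ml for 48 h, and 3 libraries, labelled control at the same day 2, had none. They are called TGF-b1 and control libraries here. The labels name no vehicle and do not say whether replicates were separate cultures, so the spread between them may be technical.

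Alpha and beta tubulin fold with the help of chaperones, pair into a dimer and polymerise into microtubules, which carry transport, hold cell shape and form the spindle. Isotypes differ most at the acidic C-terminal tail, which lies on the outside of the microtubule and is where enzymes add or remove tyrosine and chains of glutamate. Cells also keep tubulin mRNA in check: the nascent N-terminus of tubulin is recognised by TTC5, which starts decay of the mRNA when free dimer is in excess. TUBA1A, TUBA1B and TUBA1C encode the closely related alpha chains of most tissues, TUBA4A an alpha chain abundant in platelets and muscle. TUBB and TUBB4B are widely expressed beta chains, TUBB6 a broadly expressed divergent one, and TUBB2A, TUBB2B and TUBB3 are best known from neurons.

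Over the whole coding sequence of the principal GENCODE release 29 transcripts (GRCh38), TUBA4A was 84.4% identical to TUBA1A, 85.7% to TUBA1B and 85.3% to TUBA1C, whereas the 3 TUBA1 genes were 95.9 to 97.2% identical to each other.

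The last 60 coding bases are shown for the beta genes that made up most of the beta-tubulin signal, because they encode the tails in which these isotypes differ. They were read from the same transcripts, 5′ to 3′ without the stop codon, and the capitals mark the last codon.
TUBB: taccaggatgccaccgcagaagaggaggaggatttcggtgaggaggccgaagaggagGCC
TUBB4B: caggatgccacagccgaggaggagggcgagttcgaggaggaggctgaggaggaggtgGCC
TUBB6: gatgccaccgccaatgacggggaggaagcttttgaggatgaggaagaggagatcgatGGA
TUBB lies at chr6:30724335-30724394, TUBB4B at chr9:137243494-137243553 and TUBB6 at chr18:12326068-12326127 for these bases, each on the plus strand. Their last 20 codons hold 9, 10 and 7 glutamate codons and 2, 1 and 4 aspartate codons, the other acidic residue. TUBB2A and TUBB2B share 59 of 60 of the corresponding bases and 98.2% of the coding sequence.

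This likeness between genes bears on how well each level could be measured. Of all 150-base windows, the labelled read length, in the principal transcript, TUBA4A (0 of 2013), TUBB4B (0 of 1488) and TUBB6 (0 of 1915) had no window that also occurs in an annotated transcript of another gene. The shared part was 2.50% for TUBB, all with the pseudogene TUBBP1. It was 6.91% for TUBA1A, 6.77% for TUBA1C and 19.1% for TUBA1B, all among these 3 genes. TUBB2A shared 49.4% and TUBB2B 39.4% of their windows, every TUBB2A one with TUBB2B, and TUBB3 shared 88.7%, every one with the read-through gene AC092143.1, which was listed at 0 in all 6 libraries. The handling of reads from shared or overlapping stretches is unstated, so the levels of TUBB2A, TUBB2B and TUBB3 are uncertain, and those of the TUBA1 genes less so.

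The libraries held 53591796 to 60200816 reads, of which 93.5 to 95.5% mapped. Values are FPKM, fragments scaled by exon length and by 1 value per library. Fragment numbers could be recovered from the FPKM, 20703945 to 23678772 per library over genes with a unique name. The value per library was 0.964 (control 2) to 1.036 (control 3) times this number, so it was not simply the library size. Of 14 urothelial and epithelial markers 6 reached 1 FPKM in a library, led by KRT18 and KRT8, while GATA3 stayed at or under 0.0650 FPKM and KRT5, KRT19 and UPK3A were listed at 0. Their summed level was 410.8 to 442 FPKM in TGF-b1 and 475 to 642 FPKM in control libraries. No leukocyte, endothelial, fibroblast or ciliated-cell marker reached 1 FPKM. Among 3 neuronal markers SYP did (1.69 FPKM at most), and STMN2 was listed at 0.

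TUBA4A was higher with TGF-β1, with the largest fold difference of the 8 isotypes that passed the filter on low values, though not the largest in FPKM, where TUBB and TUBB4B differed by more. It stood at 14.5, 17.1 and 17.2 FPKM in the TGF-b1 libraries, against 2.77, 3.37 and 2.07 FPKM in the control libraries. The lowest TGF-b1 library was thus well above the highest control library, and the groups did not overlap. The means were 16.2 ± 1.52 and 2.74 ± 0.651 FPKM (SD, n = 3 each), a ratio of 5.94. These values rest on 1265, 1670 and 1664 fragments with TGF-β1 and on 253, 311 and 195 without. As a difference of log2(FPKM + 1) means, a measure that shrinks changes at low levels, it was 2.22 (SE 0.13), the largest positive one among the 11363 genes tested. Because the gene was chosen for this difference, no p is given for it. In bulk RNA, more cells that express the gene and more RNA per cell cannot be told apart.

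**Figure D1:**
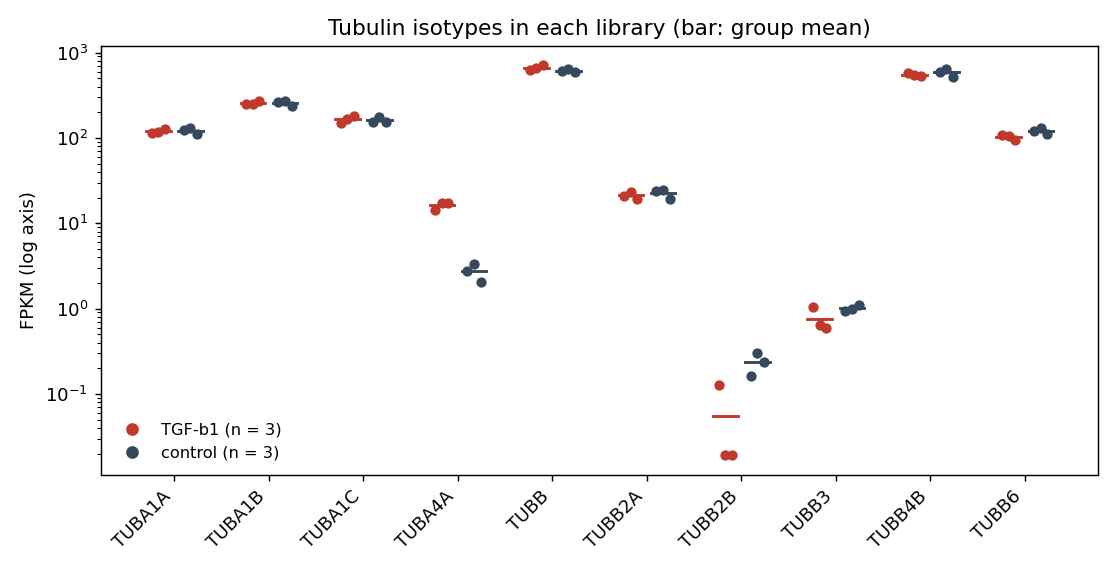
FPKM of the 10 tubulin isotypes on a log axis, with 1 point per library and a bar at each group mean, TGF-b1 in red and control in dark blue (n = 3 each). TUBA4A lies at 14.5 to 17.2 FPKM in TGF-b1 and at 2.07 to 3.37 FPKM in control libraries, while the 7 isotypes with higher levels lie close together in both groups.

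TUBA4A spans chromosome 2 from 219249711 to 219278170 on the minus strand, and 18.1% of its 4079 exonic bases also lie in exons of genes on the opposite strand. Of these bases 627 belong to STK16, a protein kinase gene, and 112 to TUBA4B. STK16 had 7.34, 7.65 and 8.25 FPKM in TGF-b1 libraries, against 7.57, 9.39 and 6.92 FPKM in control libraries. These groups overlapped, and the STK16 change did not pass (log2 change -0.03, adjusted p = 0.89 in limma over all genes). TUBA4B had 4 fragments over the TGF-b1 and 0 over the control libraries. Among overlapping neighbours of the other isotypes, AFG3L2, a mitochondrial protease gene opposite TUBB6, had 9.08 ± 0.30 FPKM in TGF-b1 and 9.13 ± 0.308 FPKM in control libraries (adjusted p = 0.96). AC011603.2, opposite TUBA1B, had 14 fragments over the TGF-b1 and 16 over the control libraries. In the same order AL662797.1, opposite TUBB, had 6 and 0 fragments, and FAM166A, opposite TUBB4B, had 1 and 12. PSMG4, opposite TUBB2B, had 634 and 758, and AC125611.3, opposite TUBA1C, had 0 and 0. TUBA1A and TUBA1C share 490 exonic bases on opposite strands.

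The other 3 alpha isotypes were far more abundant and stayed near their control levels. TUBA1B, the most abundant alpha gene, stood at 250.3, 247 and 271 FPKM with TGF-β1, against 262, 269 and 236 FPKM without it. TUBA1C stood at 152, 165 and 181 FPKM in TGF-b1 and at 153, 178 and 152 FPKM in control libraries. TUBA1A stood at 115, 118 and 126 FPKM in TGF-b1 and at 124, 129.9 and 110.1 FPKM in control libraries. In each of the 3 genes the groups overlapped, with log2 changes of 0.00 (SE 0.10) for TUBA1B, 0.05 (SE 0.11) for TUBA1C and -0.02 (SE 0.10) for TUBA1A.

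Among the beta isotypes TUBB and TUBB4B were the most abundant of all 10. TUBB had 621, 658 and 707 FPKM in TGF-b1 libraries, against 607, 646 and 586 FPKM in control libraries. TUBB4B had 572, 539.5 and 529 FPKM with TGF-β1, against 598, 646 and 518 FPKM without it. Both genes overlapped between the groups, TUBB with a log2 change of 0.11 (SE 0.11) and TUBB4B with one of -0.10 (SE 0.12). TUBB6 had 109, 105 and 93.7 FPKM in TGF-b1 libraries and 121, 129.7 and 110.2 FPKM in control libraries. Its TGF-b1 values were all below its control values, by a narrow margin, and its log2 change of -0.23 (SE 0.11) did not pass (adjusted p = 0.21).

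The beta isotypes best known from neurons were low. TUBB2A had 21.0, 23.5 and 19.1 FPKM in TGF-b1 and 24.03, 24.3 and 19.1 FPKM in control libraries (log2 change -0.08, SE 0.12), with overlapping groups. TUBB3 had 1.04, 0.640 and 0.589 FPKM in TGF-b1 and 0.948, 0.998 and 1.10 FPKM in control libraries, and these overlapped as well. TUBB2B was near the limit of detection, with 6, 1 and 1 fragments in TGF-b1 and 8, 15 and 12 fragments in control libraries. Its groups did not overlap, but with so few fragments and 39.4% of its windows shared its level is uncertain.

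Of the 10 isotypes 8 passed the filter of at least 1 FPKM in at least 3 libraries, and TUBB2B and TUBB3 did not. Of the 7 tested apart from TUBA4A, 0 passed an adjusted p of 0.05 in limma, beside 2.44% of all 11363 genes, so 0 of 7 is no result about these isotypes. At an unadjusted p under 0.05 there were 0 of the 7, beside 25.1% of all genes. Voom (limma) on the recovered fragments called 0, beside 9.36% of all genes, and 1 (TUBB6) had an unadjusted p under 0.05, beside 28.6%. After detrending for GC content and length 0 passed, beside 4.44%, and 3 (TUBB, TUBB2A and TUBB4B, each with a positive log2 change) had an unadjusted p under 0.05, beside 21.8%. As deposited, the median log2 change of the 7 was -0.02, beside 0.01 for all genes tested. Among the 7, groups that do not overlap were found for TUBB6 alone, lower. Over the genes tested the shares were 14.6% higher and 12.5% lower, or 27.1% in all, so this is no result about these isotypes. TUBA4A, also without overlap, is not counted, because it was chosen for its difference. Without control 3, a setting in which 28.9% of all genes passed, TUBB6 passed as lower (log2 change -0.29, adjusted p = 0.049).

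In FPKM as deposited, the order of the levels was nearly the same in both groups. In TGF-b1 libraries it ran TUBB, TUBB4B, TUBA1B, TUBA1C, TUBA1A, TUBB6, TUBB2A, TUBA4A, TUBB3 and TUBB2B, and the ranges of neighbours in this order did not overlap. The control libraries had the same order, but there the ranges of TUBB and TUBB4B overlapped, and so did those of TUBA1A and TUBB6. TUBA4A kept the eighth place in both by this measure. It stood just under TUBB2A with TGF-β1, at 16.2 against 21.2 FPKM on average, and without it between TUBB2A at 22.5 FPKM and TUBB3 at 1.02 FPKM. This place depends on the length used. Per length of the principal transcript, chosen after seeing the data, TUBA4A made up 1.08% and TUBB2A 0.813% of the sum with TGF-β1. In control libraries they made up 0.181 and 0.858%. With fragments not divided by length they made up 1.10 and 0.612% in TGF-b1 and 0.187 and 0.654% in control libraries.

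FPKM is per length, so the isotypes can be added, but the sums and shares depend on the length used. Here it is that of all annotated exons, 3574 bases for TUBA1B, whose principal transcript has 1627. Per length of the principal transcript, the TGF-b1 shares of the 10 were 19.8% for TUBA1B, 29.4% for TUBB and 7.24% for TUBB6. As deposited they were 13.5, 35.0 and 5.43%. The sum over the 10 was 1855, 1874 and 1945 FPKM in TGF-b1 libraries, against 1892, 2027 and 1736 FPKM in control libraries. The group means were 1891 ± 47.3 and 1885 ± 146 FPKM, a ratio of 1.003, and the control libraries spanned the TGF-b1 range. The alpha isotypes summed to 558 ± 33.0 FPKM in TGF-b1 and 540.4 ± 40.0 FPKM in control libraries, and the beta isotypes to 1333 ± 14.4 and 1345 ± 106 FPKM. The difference in TUBA4A, 13.5 FPKM, corresponded to 2.50% of the control alpha sum. The ratio of alpha to beta sums was 0.402, 0.412 and 0.441 in TGF-b1 libraries and 0.400 to 0.405 in control libraries.

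Within these sums TUBA4A held a larger share with TGF-β1. It made up 0.781, 0.911 and 0.883% of the summed FPKM of the 10 isotypes in TGF-b1 libraries, against 0.146, 0.166 and 0.119% in control libraries. Of the alpha sum alone it made up 2.72, 3.12 and 2.89% in TGF-b1 and 0.512, 0.581 and 0.414% in control libraries. In both measures the groups were apart, and even at its highest TUBA4A remained the smallest of the 4 alpha shares. TUBA1A made up 21.5 ± 0.285% of the alpha sum in TGF-b1 and 22.4 ± 0.424% in control libraries, TUBA1B 45.9 ± 1.04% and 47.3 ± 0.989%, and TUBA1C 29.7 ± 1.07% and 29.8 ± 1.30% (SD, n = 3 each).

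**Figure D2:**
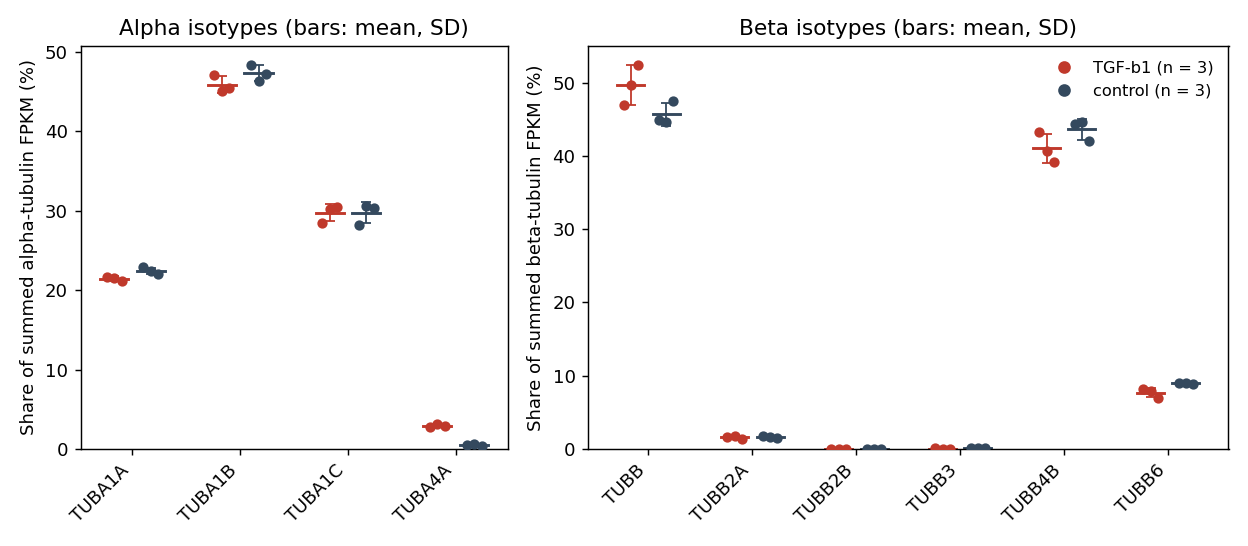
Share of each isotype in the summed FPKM of the alpha (left) or beta (right) isotypes in percent, 1 point per library, with the mean and SD of the TGF-b1 (red) and control (dark blue) libraries, n = 3 each. TUBA4A makes up 2.72 to 3.12% of the alpha sum in TGF-b1 and 0.414 to 0.581% in control libraries, and TUBB6 a smaller part of the beta sum in TGF-b1 than in control libraries.

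The ratios of the beta shares, TGF-b1 over control, lay between 0.748 for TUBB3 and 1.09 for TUBB, apart from TUBB2B at 0.24, while in percentage points TUBB and TUBB4B differed by more than TUBA4A. TUBB made up 46.9, 49.6 and 52.4% of the beta sum in TGF-b1 libraries, against 44.9, 44.6 and 47.5% in control libraries, and TUBB4B 43.2, 40.7 and 39.2% against 44.3, 44.6 and 42.0%. For both the groups overlapped (exact two-sided permutation p = 0.2 each). TUBB6 made up 8.22, 7.92 and 6.94% in TGF-b1 and 8.97, 8.96 and 8.92% in control libraries, and these groups did not overlap (exact permutation p = 0.1). That is the smallest p that 3 against 3 libraries can give, so none of the 9 isotypes tested this way could pass 0.05. TUBB2B also reached p = 0.1 in this exact test, and TUBB2A (p = 0.6) and TUBB3 (p = 0.3) overlapped. The alpha sum holds TUBA4A, whose higher values lower the other alpha shares, so these are tested only in the sum of all 10, where TUBA4A made up under 1%. There TUBA1A (exact permutation p = 0.3), TUBA1B (p = 0.8) and TUBA1C (p = 0.5) overlapped between the groups.

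Base composition differed between these isotypes, and its part in their differences was not tested. The transcripts of TUBB and the TUBA1 genes hold 51.6 to 54.7% G and C, TUBB4B 59.5%, TUBA4A 57.8% and TUBB6 61.2%. Genes above the median GC content of 48.1% deviated from their mean by a median log2 of -0.02, -0.08 and -0.09 in TGF-b1 1, 2 and 3, and by 0.12 and 0.14 in control 1 and 2 and -0.05 in control 3. Control 3 thus lay among the TGF-b1 libraries in this measure. After each library was detrended for GC content and length, the log2 change of TUBB6 was -0.01 (adjusted p = 0.97) and that of TUBA4A 2.39 (SE 0.11). In that setting the TUBB share of the 10 isotypes was 34.3 ± 0.977% in TGF-b1 and 33.2 ± 0.210% in control libraries, against 35.0 ± 1.45% and 32.6 ± 1.06% as deposited. The TUBB4B share was 29.9 ± 1.35% in TGF-b1 and 30.1 ± 0.289% in control libraries, against 28.9 ± 1.80% and 31.1 ± 1.09% as deposited. The TUBB6 share still did not overlap, at 5.57 ± 0.385% and 6.22 ± 0.20%, and the TUBA1A share, which overlapped as deposited, no longer did, at 6.17 ± 0.0643% and 6.61 ± 0.303%.

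**Figure D3:**
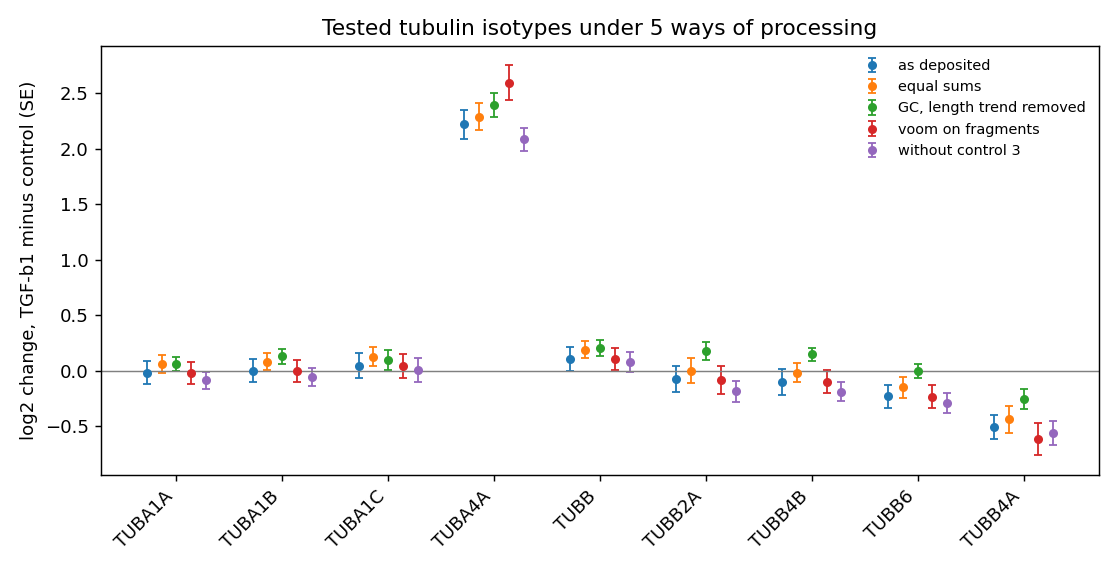
Log2 change of TGF-b1 minus control with its SE for the 8 tested isotypes and for TUBB4A, under 5 ways of processing, on the log2(FPKM + 1) scale except for voom, which fits recovered fragments. TUBA4A lies between 2.08 and 2.59 in these settings, and TUBB6 is at -0.23 as deposited and at -0.01 after detrending.

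The genes whose levels followed TUBA4A most closely were sought by the root-mean-square distance between log2(FPKM + 1) profiles over the 6 libraries, each centred on its gene's mean, among 6854 genes. Since TUBA4A had the largest change, this distance favours genes with large changes, and the values are a description. The 5 nearest were PMEPA1, which dampens SMAD signalling from the membrane, at a distance of 0.17, FSTL3, a secreted activin binder, at 0.22, and the membrane protease ADAM19 at 0.39. FN1, which encodes fibronectin, followed at 0.41 and ANGPTL4, an inhibitor of lipoprotein lipase, at 0.43. TUBA4A itself lay 1.12 from its own mean on this scale. FSTL3 had 15.9, 15.3 and 17.1 FPKM in TGF-b1 libraries, against 4.17, 4.86 and 2.27 FPKM in control libraries. PMEPA1 had 75.3, 63.6 and 66.2 FPKM in TGF-b1 libraries, against 15.2, 14.6 and 12.4 FPKM in control libraries. Neither gene overlapped between the groups, which follows from choosing them for likeness to TUBA4A.

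Of 12 further tubulin genes, 4 were tested, of which 0 were higher and 1 was lower, against 1.14 and 1.29% of all genes tested. The lower one was TUBB4A, a beta isotype best known from the brain, with 3.71, 4.26 and 3.16 FPKM in TGF-b1 libraries, against 5.84, 5.94 and 5.18 FPKM in control libraries. These groups did not overlap, and the log2 change was -0.50 (SE 0.11, limma adjusted p = 0.036). It no longer passed after detrending for GC content and length (log2 change -0.25, adjusted p = 0.17), with libraries rescaled to equal sums (0.069) and without TGF-b1 1, TGF-b1 3, control 1 or control 2 (0.059 to 0.16). Nor did it pass with no filter (0.29) or without trend and robust estimation (0.060). The gamma tubulin TUBG1, which nucleates microtubules, stood at 84.5 ± 3.46 and 87.7 ± 3.02 FPKM in TGF-b1 and control libraries (adjusted p = 0.73). Its copy TUBG2 stood at 7.19 ± 1.13 and 7.89 ± 0.428 FPKM, and the delta tubulin TUBD1, a centriole protein, at 3.89 ± 0.349 and 3.70 ± 0.485 FPKM. The epsilon tubulin TUBE1, below the filter, had 0.811, 0.819 and 0.809 FPKM in TGF-b1 and 0.724, 1.01 and 0.918 FPKM in control libraries. Of 36 tubulin pseudogenes 12 were above 0 in a library, and together they summed to 5.22 ± 1.14 and 4.82 ± 0.376 FPKM.

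Genes that fold tubulin or adjust its mRNA showed 1 call. Of 22 tested chaperonin, prefoldin, cofactor and autoregulation genes 0 were higher and 1 lower, beside 1.14 and 1.29% of all genes, with a median log2 change of -0.03. PFDN2, a subunit of the prefoldin that hands nascent tubulin to the chaperonin, fell to 64.9, 64.7 and 63.0 FPKM in TGF-b1 libraries, against 91.5, 95.5 and 81.1 FPKM in control libraries (log2 change -0.47, SE 0.10, adjusted p = 0.032). It passed after detrending (0.011) and no longer passed on leaving out any 1 of TGF-b1 1, 2 or 3 or control 1 or 2 (0.056 to 0.17) or with no filter (0.22). ARL2, a small GTPase that acts with the tubulin cofactors, stood at 16.4 ± 2.94 and 26.9 ± 4.67 FPKM (adjusted p = 0.055), PFDN6 at 3.61 ± 1.64 and 6.99 ± 2.33 FPKM (0.22) and PFDN4 at 28.4 ± 6.38 and 23.6 ± 1.11 FPKM (0.31). Voom called 0 higher and 2 lower (PFDN2 and ARL2), beside 3.51 and 5.85% of all genes. ARL2 also passed with a minimum of 5 FPKM (adjusted p = 0.019), where 500 of 6705 genes passed, and without TGF-b1 1 (0.039), where 330 of 11363 passed. With the replicate number as a block, where 767 of 11363 genes passed, ARL2 (0.0083) and PFDN6 (0.045) passed. Without control 3, 0 of the 22 were higher and 5 lower, beside 12.4 and 16.5% of all genes.

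Enzymes that modify tubulin, most of them at the tail, had 0 calls in limma. The list also holds deacetylases of tubulin. Of 15 tested, 0 passed in limma, beside 2.44% of all genes, and 4 had an unadjusted p under 0.05, beside 25.1%. Voom called 1 higher (TTLL7) and 0 lower, beside 3.51 and 5.85% of all genes. TTL, the ligase that adds the terminal tyrosine, stood at 9.23 ± 0.377 FPKM in TGF-b1 and 7.56 ± 0.539 FPKM in control libraries (adjusted p = 0.13). TTLL7, a glutamylase of beta tubulin, stood at 2.28 ± 0.0817 and 1.66 ± 0.0947 FPKM (0.096), TTLL12 at 29.7 ± 1.25 and 36.8 ± 3.43 FPKM (0.12) and TPGS1, a subunit of a glutamylase complex, at 5.21 ± 0.131 and 7.06 ± 1.40 FPKM (0.13). Without control 3, 3 of the 15 were higher and 3 lower, beside 12.4 and 16.5% of all genes.

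Of the proteins that act on microtubules, those that sever or destabilise them held 1 call. Of 10 tested 0 were higher and 1 lower, beside 1.14 and 1.29% of all genes, and the median log2 change was 0.16. STMN3, a stathmin that binds tubulin dimers, fell to 49.1, 49.3 and 47.5 FPKM in TGF-b1 libraries, against 97.1, 101 and 75.2 FPKM in control libraries. The log2 change was -0.88 (SE 0.12, adjusted p = 0.0032), or -0.60 after detrending (adjusted p = 0.0011), and the call held whichever library was left out (adjusted p at most 0.017) and was lost with no filter (0.12). The severing enzyme FIGN stood at 3.996 ± 0.238 and 2.83 ± 0.606 FPKM (adjusted p = 0.097), the depolymerising kinesin KIF2A at 15.002 ± 1.06 and 11.3 ± 1.54 FPKM (0.085) and the severing enzyme SPAST at 3.49 ± 0.154 and 2.70 ± 0.422 FPKM (0.14). Voom called 2 higher (FIGN, adjusted p = 0.022, and KIF2A, 0.030) and 1 lower (STMN3), beside 3.51 and 5.85% of all genes. KIF2A also passed with a minimum of 5 FPKM (adjusted p = 0.048), where 500 of 6705 genes passed. It passed as well with the replicate number as a block (0.048), where 767 of 11363 passed. Without control 3, 5 of the 10 were higher and 2 lower, beside 12.4 and 16.5% of all genes.

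Microtubule-associated and tip proteins, the gamma-tubulin ring complex and the transport motors had 0 calls in limma among 27, 14 and 30 genes tested, beside 2.44% of all genes. At an unadjusted p under 0.05 there were 7, 5 and 4, beside 25.1%. Voom called 2 higher (CAMSAP2 and MAP1B) and 1 lower (CLIP2) in the first, 0 higher and 1 lower (MZT2A) in the second and 1 higher (KIF21A) and 1 lower (KLC2) in the third, beside 3.51 and 5.85% of all genes. Their median log2 changes were 0.13, 0.09 and 0.06. CLIP2, a linker at growing plus ends, stood at 40.7 ± 8.19 FPKM in TGF-b1 and 65.5 ± 9.78 FPKM in control libraries (adjusted p = 0.058), and CAMSAP2, which stabilises minus ends, at 7.58 ± 0.148 and 5.56 ± 0.627 FPKM (0.059). The microtubule-binding MAP1B stood at 9.35 ± 0.403 and 7.03 ± 1.58 FPKM (0.13), and CAMSAP3, a relative of CAMSAP2, at 2.84 ± 0.491 and 3.67 ± 0.755 FPKM (0.23). In the ring complex the small subunits MZT2A and MZT2B stood at 11.1 ± 1.65 and 45.9 ± 5.26 FPKM in TGF-b1 libraries, against 16.01 ± 3.49 and 57.9 ± 10.4 FPKM in control libraries (0.13 and 0.19). TUBGCP3, a core subunit, stood at 6.96 ± 0.365 and 5.74 ± 0.213 FPKM (0.14). NEDD1, which recruits the ring complex, stood at 9.73 ± 1.17 and 7.70 ± 0.692 FPKM (0.13), and KIF5B, the heavy chain of conventional kinesin, at 27.2 ± 0.565 and 22.1 ± 2.88 FPKM (0.13). The kinesin light chain KLC2 stood at 12.3 ± 1.84 and 17.2 ± 2.60 FPKM (0.088), and the kinesins KIF21A and KIF16B at 2.21 ± 0.27 and 3.06 ± 0.301 FPKM in TGF-b1 libraries, against 1.51 ± 0.277 and 2.40 ± 0.28 FPKM in control libraries (0.11 and 0.17). Without control 3, 7 of the 27 were higher and 3 lower, 1 of the 14 higher and 2 lower, and 4 of the 30 higher and 2 lower, beside 12.4 and 16.5% of all genes. After detrending 0 of the 27 were higher and 1 lower (CLIP2, adjusted p = 0.036), beside 4.44% of all genes. In that setting 0 of the 14 and 0 of the 30 passed. With a minimum of 5 FPKM, where 500 of 6705 genes passed, CLIP2 (0.021), CAMSAP2 (0.033) and KLC2 (0.045) passed. With the replicate number as a block, where 767 of 11363 passed, CLIP2 (0.0095), KLC2 (0.033), CAMSAP2 (0.048) and MZT2A (0.0495) passed. Without TGF-b1 1, where 330 of 11363 passed, CLIP2 (0.036) and KLC2 (0.049) passed.

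**Figure D4:**
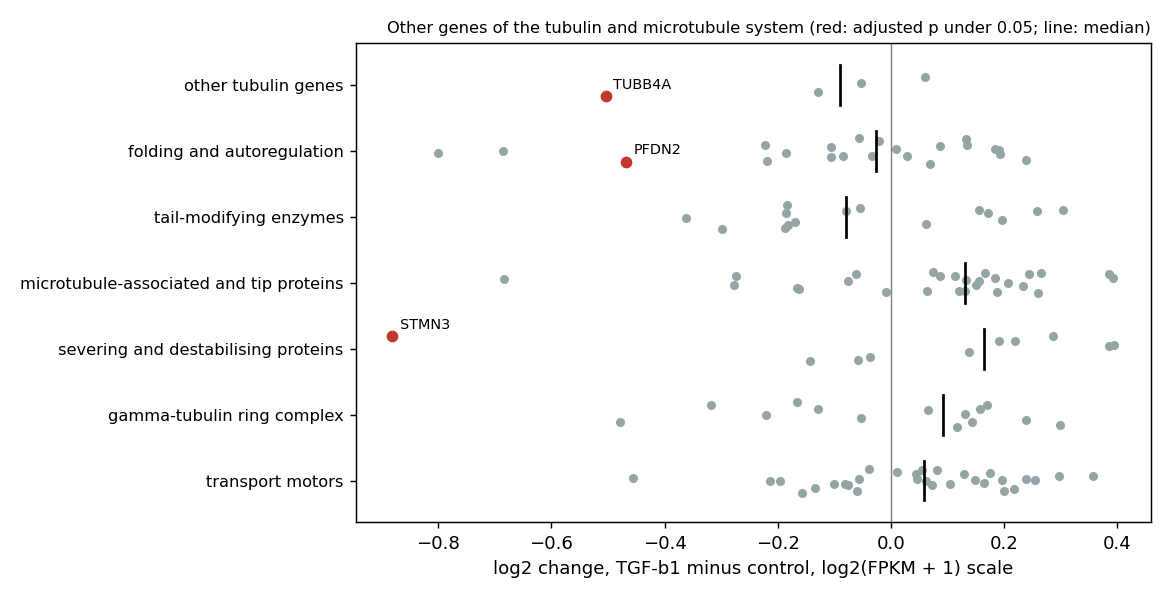
Log2 change of TGF-b1 minus control on the log2(FPKM + 1) scale for each tested gene of 7 lists around tubulin, 1 point per gene, red where the adjusted p is under 0.05, with a line at each list's median. TUBB4A, PFDN2 and STMN3, each lower, are the 3 genes past the threshold. The list labelled tail-modifying enzymes also holds tubulin deacetylases.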

How the data were processed

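Per the submitters' processing notes, the tools included HISAT2 2.0.5 and featureCounts 1.5.0-p3, and the build was hg38. The sources used here do not give strand setting, annotation release or trimming. The deposited values are FPKM in 1 table of 6 columns, and the 6 sample files hold the same values. The first 11 rows are mapping totals and were left out.

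Rows were matched by symbol to GENCODE release 29. FPKM times exon length times 1 value per library gave whole fragments for 99.999% of 124656 values above 0, leaving out the highest fragment numbers, to within 0.05 of a whole number.

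Values were tested as log2(FPKM + 1) by limma 3.58.1 (R 4.3.3) with trend and robust estimation, keeping the 11363 genes that reached 1 FPKM in 3 or more libraries. The model held treatment alone. Benjamini-Hochberg adjustment ran over all genes tested, and the threshold was 0.05. Every adjusted p printed comes from it unless another setting is named. Shares were compared by exact two-sided permutation (SciPy 1.17.1) with no adjustment over the isotypes. The voom alternative, also in limma, used trimmed-mean (TMM) scaling of the recovered fragments. Detrending subtracted a loess surface of GC content and log2 length from each library. The test was also run on simulated counts with a fixed spread, no outlying library and no GC trend. That run does not show how the test behaves on these data.

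The isotypes and lists were chosen with earlier results of these data known. Named were the isotypes, overlapping genes, tested further tubulins, the 5 genes nearest TUBA4A and up to 4 per list, taking called genes before the largest changes among the rest. KRT18, KRT8, GATA3, KRT5, KRT19, UPK3A, SYP and STMN2 come from the marker list. Terminal coding sequences of the alpha isotypes are not reported here.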

Additional observations from a re-analysis of the deposited data

How the results depend on the processing

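The log2 change of TUBA4A was 2.08 to 2.34 on leaving out each library, 2.55 with a pseudocount of 0.1 and 2.59 by voom. The difference in its share of the summed FPKM, TGF-b1 minus control, was 0.715 percentage points, 0.688 to 0.753 on leaving out each library, 0.917 with fragments not divided by length and, chosen after seeing the data, 0.901 per length of the principal transcript. The ratio of summed tubulin was 1.003 as deposited, 0.965 to 1.04 on leaving out each library, 1.06 with libraries rescaled to equal sums and, chosen after seeing the data, 1.115 after detrending for GC content and length. The count of other isotypes called was 0 in each setting run but the one without control 3, and 0 to 1 on leaving out each library.

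Over all genes 277 passed, 15 with no filter, 500 at a minimum of 5 FPKM, 767 with the replicate number as a block, 1057 by voom, 501 after such detrending, and 124 (without control 1) to 3280 (without control 3) on leaving out each library. Same-numbered libraries deviated together with correlations of 0.25, -0.07 and 0.17 over 11363 genes, and differently numbered ones with -0.24 to 0.07. These values do not settle whether the numbers are pairs. The main fit did not take them as pairs. Small changes that did not pass changed sign. With libraries rescaled to equal sums TUBA1A was at 0.063 and TUBB2A at 0.00064. After detrending TUBA1A was at 0.058, TUBB2A at 0.18 and TUBB4B at 0.15. On leaving out each library TUBA1A ranged from -0.084 to 0.034, TUBA1B from -0.054 to 0.040 and TUBA1C from -0.019 to 0.12. The cause of these moves was not tested. TUBB2B and TUBB3 rest on the fewest fragments, 8 and 229 over the TGF-b1 and 35 and 307 over the control libraries. They also share 39.4 and 88.7% of their windows with other genes.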
